A study of Mus musculus with 8 samples.

Results

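Among the 20778 cells of 8 mouse lung grafts, 85 cells carried the authors' label mast cell, 0.409% of the total. They were the cells with that name in the deposited table of cells, and all 85 came from 1 cluster. Each graft was a left lung taken 1 month after transplantation into a male B6 (C57BL/6) recipient that received no immunosuppression. In the B6→B6 group (5 mice) the donor was also B6, a control without rejection. In the HLA→B6 group (3 mice) the donor carried the transgene Tg(HLA-A2.1)1Enge, a human HLA-A2 gene, on the C57BL/6 background, a model of bronchiolitis obliterans syndrome (BOS), the airway form of chronic rejection. Ages were not given. Each mouse gave 1 library made from 10000 loaded cells by droplet sequencing of transcript 3′ ends, in which a unique molecular identifier (UMI) marks each captured molecule. Whether a labelled cell came from the donor or the recipient was not analysed here.

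Mast cells and basophils are both granulocytes that bind IgE through the high-affinity receptor FcεRI and release histamine from granules when the receptor is crosslinked. Mast cells mature in tissues, depend on the receptor tyrosine kinase Kit and store chymases and tryptases. Basophils circulate, leave the bone marrow mature, lack Kit when mature and, in the mouse, store the proteases Mcpt8 and Prss34. The label went against these markers. A UMI of at least 1 of the 5 basophil markers (Mcpt8, Prss34, Cd200r3, Itga2, Cyp11a1) was present in 84 of the 85 cells (98.8%), whereas a UMI of a mast cell marker (Kit, Cma1 or Mcpt4) was present in 4 (4.71%). Taken singly, Cyp11a1 and Cd200r3 were seen in 69 and 60 cells, and the proteases Mcpt8 and Prss34 in 53 and 6 cells. How far Cyp11a1 and Cd200r3 separate basophils from mast cells was not tested. Of the 9 listed mast cell markers, 3 were analysed. The cells are therefore called labelled cells or basophil-like cells.

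The promoters of 4 of the genes that set these cells apart are shown because Gata2, a zinc finger factor of the GATA family known for its role in basophils and mast cells, was detected in 60 of the labelled cells. The 4 genes encode the IgE-binding α chain of FcεRI (Fcer1a), its β chain (Ms4a2), the granule exopeptidase carboxypeptidase A3 (Cpa3) and the basophil protease Mcpt8. Each sequence is from RefSeq on GRCm38.p6, runs 5′ to 3′ on the strand of its gene over 300 bases and has the RefSeq start of the gene at base 251. Capitals mark matches to a GATA motif, which was spelled AGATAA or TGATAA, or with a final G as AGATAG and likewise in the last form TGATAG, searched on both strands, so that a match on the other strand shows as its reverse complement. The windows are chr1:173227180-173227479 (Fcer1a), chr19:11623670-11623969 (Ms4a2), chr3:20242132-20242431 (Cpa3) and chr14:56085148-56085447 (Mcpt8), all on the minus strand. The genes themselves lie at chr1:173221284-173227214, chr19:11615523-11623719, chr3:20215620-20242181 and chr14:56082166-56085273 in GENCODE vM21. The start of the gene in GENCODE is that of RefSeq for Ms4a2 and Cpa3, and lies 15 bases from it for Fcer1a and 76 bases for Mcpt8.
Fcer1a: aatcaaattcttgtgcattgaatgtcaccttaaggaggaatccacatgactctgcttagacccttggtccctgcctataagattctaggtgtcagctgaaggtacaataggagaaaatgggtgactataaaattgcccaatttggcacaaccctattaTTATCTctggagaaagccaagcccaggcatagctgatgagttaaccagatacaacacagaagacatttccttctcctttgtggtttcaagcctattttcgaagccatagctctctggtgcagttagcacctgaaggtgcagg
Ms4a2: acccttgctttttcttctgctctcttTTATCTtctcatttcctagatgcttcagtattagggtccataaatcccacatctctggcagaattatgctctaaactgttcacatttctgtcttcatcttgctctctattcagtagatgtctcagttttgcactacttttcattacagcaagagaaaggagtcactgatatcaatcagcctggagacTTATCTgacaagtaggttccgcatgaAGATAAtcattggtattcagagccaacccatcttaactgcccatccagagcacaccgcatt
Cpa3: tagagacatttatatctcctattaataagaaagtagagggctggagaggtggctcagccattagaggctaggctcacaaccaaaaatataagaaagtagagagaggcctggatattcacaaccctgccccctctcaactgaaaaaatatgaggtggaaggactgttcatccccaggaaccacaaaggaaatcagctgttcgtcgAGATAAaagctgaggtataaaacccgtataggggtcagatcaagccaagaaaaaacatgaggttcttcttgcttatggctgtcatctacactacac
Mcpt8: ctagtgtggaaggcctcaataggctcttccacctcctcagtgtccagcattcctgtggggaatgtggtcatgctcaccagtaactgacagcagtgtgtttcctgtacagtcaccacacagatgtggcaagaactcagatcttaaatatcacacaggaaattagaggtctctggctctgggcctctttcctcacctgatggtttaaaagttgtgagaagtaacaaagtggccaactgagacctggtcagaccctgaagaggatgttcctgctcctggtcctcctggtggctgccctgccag
The Ms4a2 window held 3 matches, the Fcer1a and Cpa3 windows 1 each and the Mcpt8 window 0. Of all 32851 promoter windows of the same length, 29.8% held a match. Of the 25 genes with the largest ratio of pooled level to the highest other cell type, 19 had a window in the table, with 23 windows in all, and 10 of these held a match (43.5%).

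The labelled cells were spread over all 8 mice, with 7, 12, 12, 9 and 6 cells in B6→B6 replicates 1 to 5 and 29, 5 and 5 cells in HLA→B6 replicates 1 to 3. HLA→B6 replicate 1 thus held 29 of the 39 labelled cells of its group. The cells had 619 to 4920 UMIs (median 1459) and a median of 706 genes. The other 20693 cells had a median of 1512 UMIs. Levels are given as CPM, the UMIs of a gene summed over the cells of a type or mouse, per 1000000 UMIs of those cells. The 141751 UMIs of the labelled cells put the level that a count of 0 allows (3 counts) at 21.2 CPM. Intervals are 95% intervals for counting error only.

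Some libraries stood apart. Cell barcodes tied HLA→B6 replicate 2 to B6→B6 replicates 1 and 2, and tied these 2 to each other and to B6→B6 replicate 3. In each of these 5 pairs of the 4 libraries 39 to 160 barcodes were shared. HLA→B6 replicate 2 and B6→B6 replicate 3 shared 23 barcodes and were tied only through the other 2 libraries. Barcodes of 3 labelled cells occurred in another mouse, 1 each on a monocyte, a myeloid cell and a T cell. Scrublet, a caller of doublets, called 0 of the labelled cells and 256 of all cells. In 3 labelled cells over 10% of the UMIs came from red blood cell or neutrophil genes, 1 in B6→B6 replicate 1 (55.9% red blood cell) and 2 in HLA→B6 replicate 2 (66.6% red blood cell and 12.9% neutrophil).

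Labels came from clusters of the same counts, so the comparison with the other 10 types is a description with no test. Of 964 genes with at least 20 UMIs in at least 10 labelled cells, 41 (4.25%) stood at least 4-fold above the highest other type. The α and β chains of the IgE receptor, the proteases Mcpt8 and Cpa3 and the steroid-synthesis enzyme Cyp11a1 were among those that led this group. With them were the muscle protein gene Csrp3 and Cd200r3, a paired receptor of the CD200R family. A filter on 20 UMIs removes genes of lower level, so these counts hold for the genes that passed it. Each of the 10 other types was the highest other type for at least 1 of the 41 genes. Leukocytes were so for 10 of the 41, and for 183 of all 964 genes.

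Fcer1a had 240 UMIs in 70 of the 85 cells and 4 UMIs in all 20693 other cells. Its pooled level was 1693 CPM (1486 to 1921). In B6→B6 replicates 1 to 5 it was 1162, 1969, 2424, 1455 and 3421 CPM, and in HLA→B6 replicates 1 to 3 it was 1306, 421 and 1708 CPM. In all 8 mice this was above every other type with at least 10 cells, and the 2 groups overlapped. Ms4a2 had 112 UMIs in 57 cells and 6 UMIs in the other cells. It was at 790 CPM (651 to 951), and between 243 and 1303 CPM in the single mice. Fcer1g, the γ chain that FcεRI shares with Fc receptors for IgG, was at 3365 CPM in 84 cells, and monocytes were higher at 5482 CPM (ratio 0.61, 0.56 to 0.67). Of the 3 receptor chains, 2 were thus 4-fold or more above every other type.

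Mcpt8 had 417 UMIs in 53 labelled cells, against 11 UMIs in the other cells. It was at 2942 CPM (2666 to 3238), with 747, 1750, 2666, 1407 and 3665 CPM in the B6→B6 mice and 2535, 2001 and 10393 CPM in the HLA→B6 mice. HLA→B6 replicate 3 was the highest, and the other 2 mice of its group lay within the B6→B6 range. Cpa3, which mast cells also store, had 190 UMIs in 59 cells and 26 UMIs in other cells. It was at 1411, 1258, 1757, 679 and 570 CPM in the B6→B6 mice and at 2151, 1053 and 445 CPM in the HLA→B6 mice, with overlap of the groups.

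Other basophil markers followed. Cyp11a1 had 205 UMIs in 69 cells (1446 CPM, 1255 to 1658) against 13 UMIs in other cells, and Cd200r3 had 154 UMIs in 60 cells (1086 CPM, 922 to 1272) against 23. Both were above every other type in all 8 mice. Prss34, a basophil tryptase-like protease, had 47 UMIs in only 6 labelled cells, and 34 of them came from 1 cell of B6→B6 replicate 5, while the other cells held 2 UMIs. Itga2, the integrin subunit α2 known as CD49b, had 7 UMIs in 7 cells and was at 49.4 CPM, against 61.2 CPM in natural killer cells (ratio 0.81, 0.32 to 1.73). Of the 5 basophil markers, 3 passed the filter and all 3 were 4-fold or more above every other type.

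Of the mast cell markers, Mcpt4, a chymase of connective tissue mast cells, had 0 UMIs in the labelled cells. Cma1, another chymase, had 2 UMIs in 1 labelled cell and was highest in natural killer cells (673 CPM), of which 51.9% held a UMI of the list. Kit had 6 UMIs in 4 cells (42.3 CPM) and was higher in structural cells at 119 CPM. All 4 labelled cells with a mast cell marker were of the HLA→B6 group and also held Cpa3 and the basophil marker Mcpt8. Mcpt8 was the only basophil marker in the cell of HLA→B6 replicate 1 (3 UMIs of Kit, 36 of Mcpt8 and 36 of Cpa3). The same held for the cell of HLA→B6 replicate 2 with Cma1, and both cells had 0 UMIs of Gata2 and Ccl3. In the B6→B6 mice the 46 labelled cells held 0 UMIs of Kit and of Cma1. The proteases Mcpt4, Mcpt8 and Cma1 belong to 1 multigene family, in which reads of near-identical copies may be split. Tpsb2, Tpsab1, Mcpt1, Mcpt2, Mrgprb1 and Mrgprb2 were not analysed here. No labelled cell held a mast cell marker without a basophil marker.

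**Figure D1:**
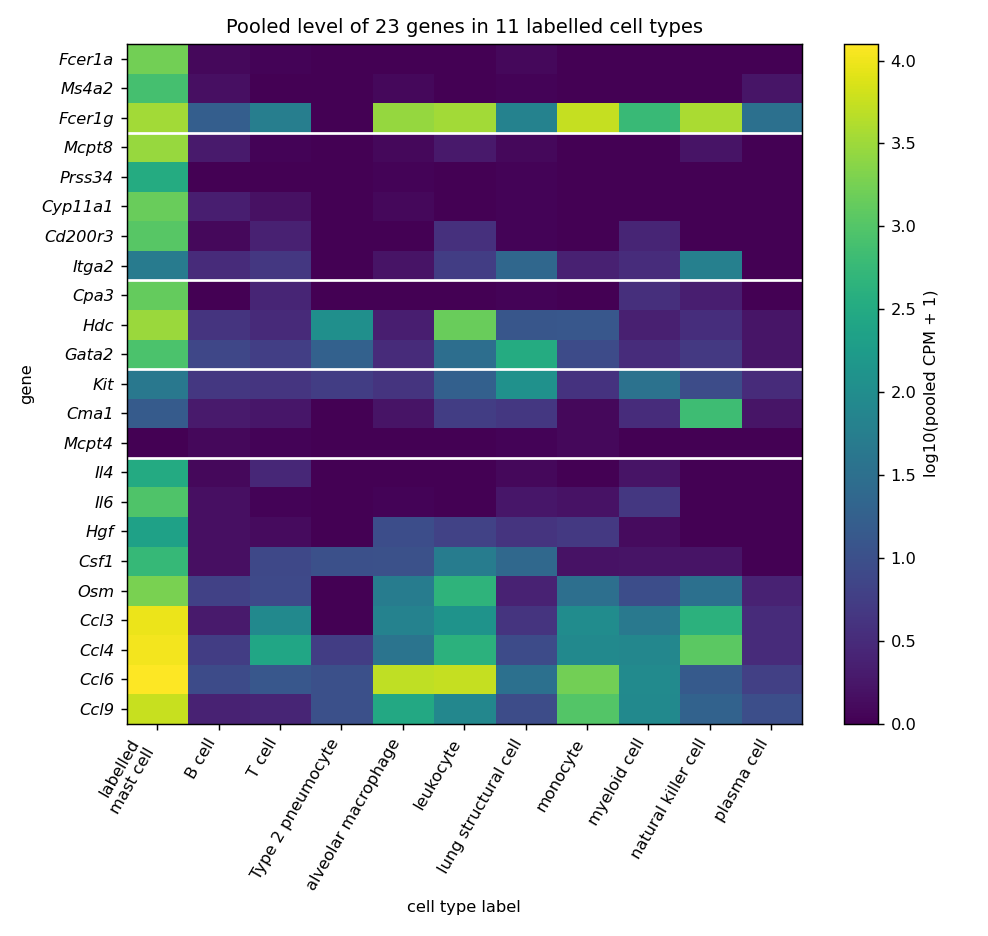
Pooled level of 23 genes (rows) in the 11 labelled cell types (columns), as log10(CPM + 1). White lines part the IgE receptor chains, the basophil markers, genes that basophils and mast cells share, mast cell markers and cytokines. Mcpt8, Prss34, Cyp11a1, Cd200r3, Fcer1a, Ms4a2, Cpa3, Il4 and Il6 are bright in the labelled cells alone, while Cma1 is brightest in natural killer cells.

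The 5 genes that basophils and mast cells share were all highest in the labelled cells. Hdc, the enzyme that makes histamine, had 428 UMIs in 78 cells and stood at 3019 CPM, against 1471 CPM in leukocytes (ratio 2.05, 1.84 to 2.29), and it was above every other type in 6 of 8 mice. Gata2 was at 868 CPM in the labelled cells and at 330 CPM in structural cells (ratio 2.63, 2.18 to 3.15), and stood above every other type in 7 mice. Of the 5 shared genes, 3 were 4-fold or more above the highest other type (Cpa3, Ms4a2 and Fcer1a).

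Within the 85 cells the markers varied from cell to cell. Of Mcpt8, Cpa3, Ms4a2 and Fcer1a, all 4 were seen in 29 cells, 3 in 21, 2 in 25 and 1 in 10, and none of the cells lacked all 4. Among the other 20693 cells, 33 held 1 of these genes and 0 held 2 or more. Mcpt8 was uneven, since 6 cells held 50% of its UMIs and 1 cell of HLA→B6 replicate 3 held 72 of 417. The 32 labelled cells without a UMI of Mcpt8 had a median of 1312.5 UMIs, against 1528 in the 53 cells with one. Fcer1a was seen in 24 of these 32 cells, Cyp11a1 in 27, Cpa3 in 20 and Ms4a2 in 18. Depth affects such counts. Thinned to 1000 UMIs per cell (76 of the 85 cells, with 9 too shallow), Mcpt8 was detected in 56%, Cpa3 in 58.4%, Ms4a2 in 54.0% and Fcer1a in 71.2% of cells. In T cells, which should lack these genes and had a median of 1648 UMIs, 1 of 5071 cells (0.0197%) held a UMI of Mcpt8, 6 (0.118%) of Cpa3, 1 of Fcer1a and 0 of Ms4a2, which allows a share of up to 0.0592%. Unthinned, the shares of labelled cells were 62.4%, 69.4%, 82.4% and 67.1%.

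**Figure D2:**
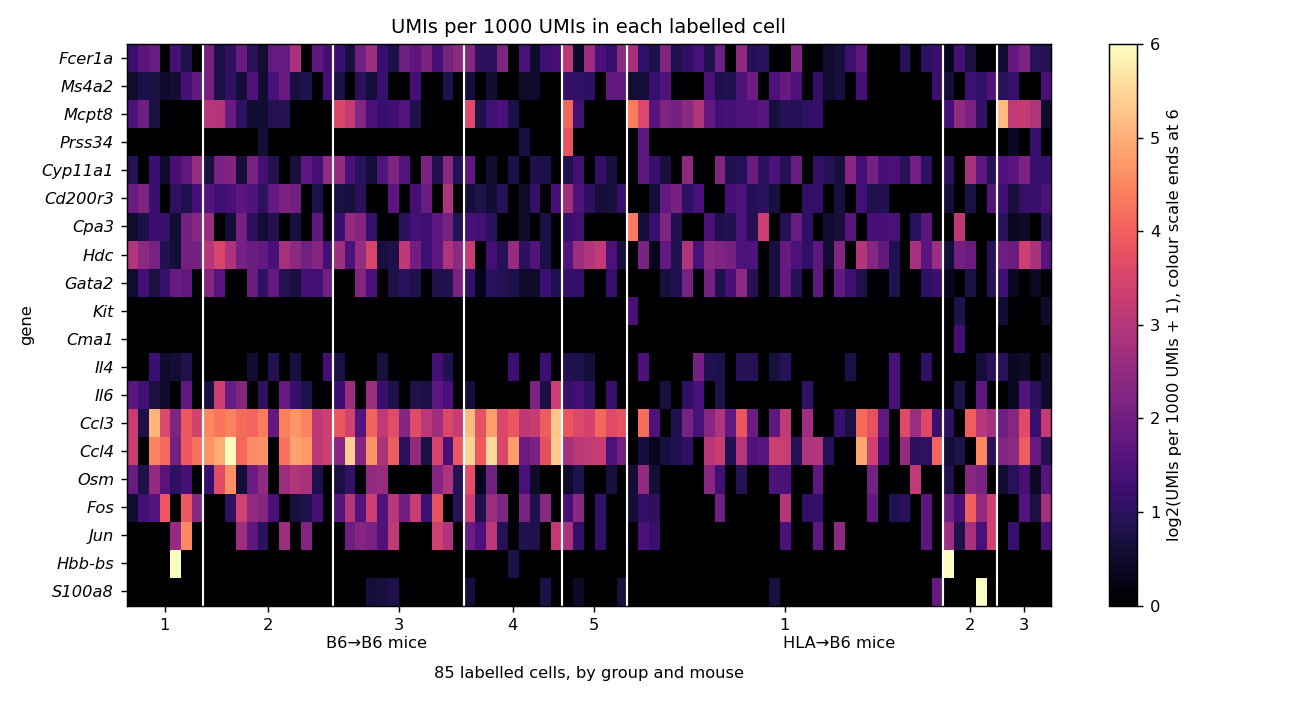
UMIs per 1000 UMIs of 20 genes (rows) in each of the 85 labelled cells (columns), as log2(value + 1), ordered by mouse and, within a mouse, by Mcpt8. Fcer1a, Cyp11a1 and Hdc are spread over most cells, Mcpt8 is concentrated in few, Kit and Cma1 are nearly empty, and Hbb-bs and S100a8 lie in single bright cells of B6→B6 replicate 1 and HLA→B6 replicate 2.

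The label left few cells with such markers elsewhere. With Gata2 and Hdc added to the 4 genes, 84 labelled cells (98.8%) and 44 of the 20693 other cells (0.213%) held at least 2 of the 6, and 66 labelled cells and 0 others held 4 or more. Of the 44, 26 were structural cells, 14 leukocytes, 2 T cells, 1 a type 2 pneumocyte and 1 an alveolar macrophage. Gata2 with Hdc and none of the other 4 genes made up 38 of the 44, namely 22 structural cells, 14 leukocytes, 1 T cell and 1 type 2 pneumocyte.

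Cytokine and chemokine genes were split. Of 20 measured genes of that list, 9 stood above every other type and 9 stood at least 4-fold below the highest type. The latter include the 5 genes with 0 UMIs. Of the 10 that passed the filter, 8 (Il4, Il6, Csf1, Ccl3, Ccl4, Ccl9, Osm and Hgf) were 4-fold or more above every other type. Il4, the cytokine of type 2 immunity, had 45 UMIs in 34 cells and 22 UMIs in all other cells, 17 of them in T cells. It was at 317 CPM (232 to 425), and at 194 to 415 CPM in the 8 mice. Il6 (chr5:30013114-30019981, plus strand), a cytokine of acute inflammation, had 131 UMIs in 42 cells and was at 924 CPM against 3.59 CPM in myeloid cells, the next highest type (ratio 258, 139 to 529). Hgf, a growth factor for epithelium, was at 219 CPM (ratio to alveolar macrophages 26.2, 16.7 to 40.1), and Csf1, which supports macrophages, at 564 CPM (ratio to leukocytes 10.8, 7.62 to 15.5).

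Chemokines that draw leukocytes followed. Ccl3 (chr11:83647844-83649355, minus strand) had 1365 UMIs in 77 cells and was at 9629.6 CPM, against 431 CPM in natural killer cells (ratio 22.3, 20.4 to 24.5). Ccl4 (chr11:83662584-83664683, plus strand) had 1488 UMIs in 77 cells and was at 10497 CPM, against 1154 CPM in natural killer cells (ratio 9.09, 8.49 to 9.74). Ccl9 was 5.66-fold above monocytes and Osm, an IL-6 family cytokine, 4.15-fold above leukocytes. Ccl6 had 1786 UMIs in 78 cells and was 2.28-fold (2.16 to 2.41) above leukocytes at 5523 CPM. At the bottom of the list, Il5, Il10, Csf2, Areg and Lif had 0 UMIs, Tnf 1 UMI and Il1b 7 UMIs. Il3, Il9 and Il13 were not analysed here.

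Genes of lipid mediators and of cytokine receptors were mostly shared with other types. Alox15, a lipoxygenase, had 27 UMIs in 21 cells and stood 39.5-fold (23.6 to 65.1) above alveolar macrophages, and it was the 1 gene of 4 that passed the filter in its list at 4-fold or more. Alox5ap, which presents arachidonic acid to 5-lipoxygenase, was at 2892 CPM, against 2711 CPM in leukocytes (ratio 1.07, 0.96 to 1.18). Ltc4s, the leukotriene C4 synthase, had 1 UMI. Slc18a2, the vesicular transporter that loads histamine, had 12 UMIs in 11 labelled cells and 12 in all others, and missed the filter. Of the cytokine receptors, 6 of 18 measured genes passed. Csf2rb2, the IL-3 receptor β chain, was at 261 CPM (6.51-fold above alveolar macrophages) and its near-identical copy Csf2rb at 663 CPM (3.27-fold), and reads may be split between these 2 paralogs. Il3ra was at 162 CPM, and Il1rl1, the receptor for IL-33, had 16 UMIs in 12 cells and missed the filter.

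Genes of the signal from FcεRI were at low counts. Of 17 measured genes, 4 passed the filter and 0 were 4-fold above every other type. Lat2, an adaptor of the receptor, had 120 UMIs in 56 cells and was 3.26-fold (2.64 to 4.00) above natural killer cells, and it stood above every other type in all 8 mice. The kinases Lyn, Syk and Fyn had 12, 7 and 3 UMIs. Transcription factors also gave 0 genes at 4-fold among the 8 of 20 that passed. Gata1 had 5 UMIs, while Mitf, known for its role in mast cells, and Cebpe had 0. Of the adhesion and migration genes 3 of the 13 that passed were 4-fold or more above every other type. They were Itga2b (8.18-fold over structural cells), the complement C3a receptor C3ar1 (4.33-fold over alveolar macrophages) and L1cam (5.21-fold over monocytes). Ccr3, a chemokine receptor shared with eosinophils, had 12 UMIs in 10 cells. Tyrobp, an adaptor of many myeloid receptors, was present in all 85 cells at 6907 CPM, below leukocytes at 9897 CPM.

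The remaining genes of the 25 with the largest ratios were on none of the marker lists. Csrp3, known as a muscle protein, was at 677 CPM in 47 cells, and the β-defensin gene Defb40 at 550.3 CPM in 21 cells, with 4 cells holding 50% of its UMIs. Rgs1, which dampens chemokine receptor signals, was at 2645 CPM (10.9-fold over natural killer cells). Npl (46.6-fold), Mboat1 (16.3-fold), Slc41a3 (12.4-fold), Adgrg3 (9.71-fold), Fam174b (8.13-fold) and Supt3 (8.11-fold) had 21 to 36 UMIs each. The list also held 2 long noncoding RNA genes of GENCODE vM21, Gm12840 (6.98-fold over T cells) and Gm14005 (7.5-fold over monocytes). Gm14005 overlaps Gm14012 on the same strand, so their reads may not be told apart, and Supt3 overlaps Runx2 on the other strand. The other 16 of the 41 genes at 4-fold or more were Rgs18, L1cam, C3ar1, Fosb, Coq8b, Lilr4b, D830025C05Rik, Aqp9, Osm, Ccl9, Cd7, Tmem71, Csf2rb2, B630019A10Rik, Tnfaip8 and Rbfa.

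**Figure D3:**
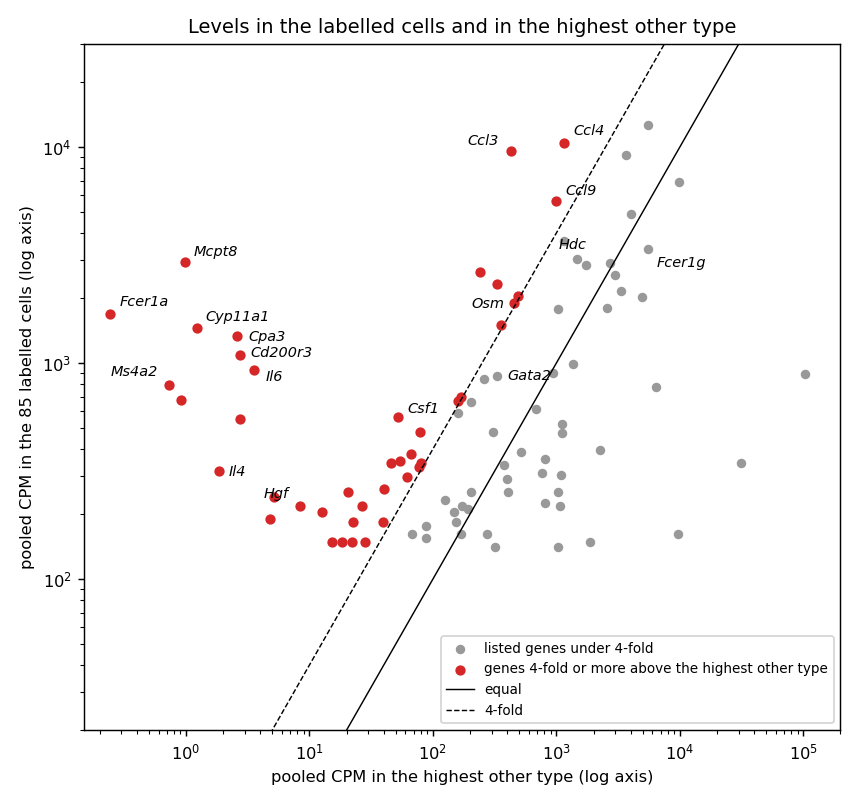
Pooled CPM in the 85 labelled cells (vertical log axis) against the CPM of the highest other type (horizontal log axis) for genes that passed the filter. Red points are the 41 genes at least 4-fold above the highest other type, gray points are other genes of the fixed lists, and the lines mark equal levels and 4-fold. Fcer1a, Ms4a2, Mcpt8, Cpa3, Cyp11a1, Cd200r3, Il6 and Il4 lie to the left, at under 4 CPM in every other type, and Ccl3 and Ccl4 at the top.

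The marker lists of other cell types stood, in sum, below the highest other type, and in 3 lists 1 cell held most of the UMIs. Neutrophil genes were at 2053 CPM in sum, with all 7 genes at least 4-fold below leukocytes (189341 CPM), and 231 of the 291 UMIs came from 1 cell. Ly6g had 0 UMIs, and Cxcr2 was spread over 29 cells. Red blood cell genes reached 25686 CPM in sum, and 2564 of 3641 UMIs came from 1 cell. T cell genes had 36 UMIs, 26 of them in 1 cell. Of 7 measured eosinophil markers, Prg2, Prg3, Ear1, Ear6 and Il5ra had 0 UMIs, and the list was at 106 CPM. The B cell, dendritic cell, alveolar macrophage and NK cell lists were at 49.4, 14.1, 35.3 and 84.7 CPM in sum. Monocyte markers were at 586 CPM against 5021 CPM in monocytes, epithelial markers at 550.3 CPM, endothelial markers at 240 CPM, markers of type 2 innate lymphoid cells at 169 CPM, progenitor markers at 56.4 CPM and platelet markers, which include Itga2b, at 367 CPM. Hemoglobin, surfactant, club cell and MHC class II genes were among those used by the authors to estimate free RNA, so their values depend on that step.

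The share of labelled cells was compared between the groups with each mouse as 1 value. It was 0.739%, 0.889%, 0.493%, 0.220% and 0.691% of all cells in the B6→B6 mice and 0.443%, 0.152% and 0.401% in the HLA→B6 mice. The B6→B6 mean was 0.606% ± 0.258 (SD, n = 5). The mean of the HLA→B6 mice was 0.332% ± 0.157 (SD, n = 3). The difference of -0.274 percentage points gave p = 0.161 in a two-sided exact permutation test, in which the 56 possible splits give p = 0.0179 at the smallest. The values of the groups overlapped, and the test did not pass the threshold of 0.05.

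Levels in the labelled cells of the 2 groups were set side by side as a pooled description with no test, since 5 of the 8 mice held 9 or fewer of these cells. The pooled sums held 79734 UMIs in B6→B6 and 62017 UMIs in HLA→B6. Of 976 genes with at least 20 UMIs, the ratio of HLA→B6 to B6→B6 had an interval above 1 in 62 (6.35%) and below 1 in 78 (7.99%), counting error alone. All 3 HLA→B6 mice lay below all 5 B6→B6 mice for 15 genes (1.54%). Of these 15, 10 also had an interval below 1, among them Ccl3, Ccl4, Il6, the lysosomal mannosidase Man2b1, the transcription factor Nfil3, Uqcc3, Itga2b, Add3 and Dusp5. The interval of Itga2b (0.37) held 1 when the second B6→B6 mouse (0.43) or the first (0.29) or second (0.44) HLA→B6 mouse was left out. That of Add3 (0.29) held 1 with B6→B6 replicate 5 (0.36) left out, or the third HLA→B6 mouse (0.37), and that of Dusp5 (0.30) without B6→B6 replicate 1 (0.44) or any 1 HLA→B6 mouse (0.20, 0.36 and 0.29). Without HLA→B6 replicate 1 the ratio of Nfil3 moved from 0.29 to 0.13, and Uqcc3 and Add3 had 0 UMIs in that group. All 3 HLA→B6 mice lay above all B6→B6 mice for 7 genes (0.717%), of which 4 had an interval above 1. They were Slpi, a protease inhibitor (3.86, 1.58 to 10.7), Snu13 (3.86, 1.47 to 11.9), Atp5g2 (4.59, 1.93 to 12.6) and Hnrnpa2b1 (2.44, 1.39 to 4.43). Slpi was at 2.35 (0.81 to 7.26) without HLA→B6 replicate 3, at 6.94 with replicate 1 of that group left out, Snu13 at 6.12 without B6→B6 replicate 3 and Hnrnpa2b1 at 4.53 without B6→B6 replicate 4.

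Ccl3 was at 11122, 17334, 9391, 15764 and 12218 CPM in B6→B6 replicates 1 to 5. In HLA→B6 replicates 1 to 3 it was at 4277, 4738 and 5345 CPM. The groups did not overlap, and the pooled ratio was 0.34 (0.30 to 0.39). Ccl3 was seen in all 46 labelled cells of B6→B6 and in 31 of 39 of HLA→B6. By mouse these were 22 of 29, 4 of 5 and 5 of 5 cells in HLA→B6 replicates 1 to 3. Most cells without it were thus of replicate 1, whose labelled cells had the lowest median depth of the mice (1236 UMIs). Ccl4 was at 11454, 25153, 11572, 17608 and 6028 CPM in B6→B6, and at 3841, 4528 and 5122 CPM in HLA→B6. The pooled ratio was 0.27 (0.24 to 0.31), and the lowest B6→B6 mouse, replicate 5, lay close to the highest HLA→B6 mouse.

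Il6 was at 996, 1859, 1818, 1067 and 896 CPM in B6→B6 and at 179, 526 and 742 CPM in HLA→B6, with a pooled ratio of 0.26 (0.16 to 0.41). These values rested on 109 UMIs in 30 cells and 22 UMIs in 12 cells. Without HLA→B6 replicate 1, which held most cells of its group, the log2 ratio of Il6 was -1.07 in place of -1.95. In HLA→B6 replicate 2, 39 of 43 Ccl4 UMIs and 4 of 5 Il6 UMIs came from the cell rich in neutrophil UMIs. Without the 3 cells that held many red blood cell or neutrophil UMIs, Ccl3 in this mouse was at 7269 CPM. Ccl4 was then at 519 CPM and Il6 at 260 CPM, values that rested on few UMIs. The groups still did not overlap for Ccl3, Ccl4 or Il6. Genes of the immediate early response, which dissociation of tissue can raise, moved with these 3 genes in part. They summed to 10833 to 26411 CPM in the labelled cells of B6→B6 and to 9373, 29588 and 7498 CPM in HLA→B6. HLA→B6 replicates 1 and 3 thus lay below all B6→B6 mice and replicate 2 above them. The libraries tied by barcodes had the highest sums, 25896, 26411 and 22781 CPM in B6→B6 replicates 1 to 3 besides HLA→B6 replicate 2. B6→B6 replicates 4 and 5 were at 18820 and 10833 CPM. The sums thus ran with these ties, and the part of the group in them was not tested. Of 8 such genes with at least 20 UMIs, 7 (Fos, Fosb, Jun, Junb, Dusp1, Ier2 and Zfp36) had pooled ratios of 0.39 to 0.62 with intervals below 1. Over all 976 genes with at least 20 UMIs, 78 (7.99%) had an interval below 1. Without HLA→B6 replicate 1, the intervals of Fos (1.00, 0.76 to 1.30), Fosb (0.90, 0.51 to 1.51), Jun (1.01, 0.73 to 1.38) and Dusp1 (0.74, 0.52 to 1.03) held 1, and without HLA→B6 replicate 2 the ratios of Fos, Fosb and Jun were 0.29, 0.19 and 0.25. Over the 85 cells, Ccl3 and Ier2 had a Spearman correlation of 0.45, which was 0.29 within the B6→B6 cells and 0.31 within the HLA→B6 cells. The part of the immediate early genes in the values of Ccl3, Ccl4 and Il6 was not tested. In natural killer cells of the same mice, Ccl3 was at 349 to 988 CPM in B6→B6 and at 249 to 332 CPM in HLA→B6, while Ccl4 overlapped. Ccl3 and Ccl4 overlapped in leukocytes, monocytes, alveolar macrophages, myeloid cells and T cells. In T cells the medians ran the other way, with Ccl3 at 9.16 CPM in B6→B6 and 60.7 CPM in HLA→B6 and Ccl4 at 40.6 and 280.0 CPM.

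**Figure D4:**
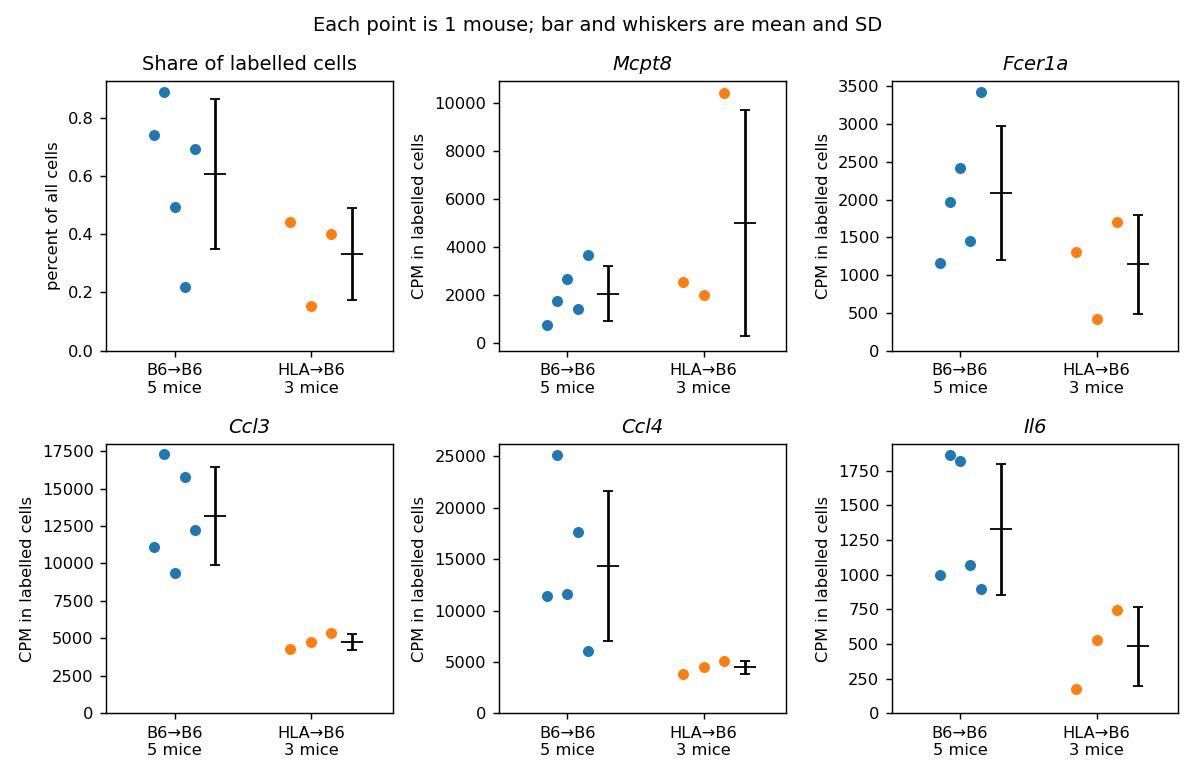
Share of labelled cells and CPM of 5 genes in these cells, with 1 point per mouse (5 B6→B6 mice in blue, 3 HLA→B6 mice in orange) and the mean and SD in black. The points of Ccl3, Ccl4 and Il6 do not overlap between the groups, those of the share, Mcpt8 and Fcer1a do, and 1 HLA→B6 mouse is at 10393 CPM of Mcpt8.

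Over the 85 cells, Ccl3 and Ccl4 had a Spearman correlation of 0.71 on log values (0.76 over the 46 B6→B6 cells and 0.44 over the 39 HLA→B6 cells), and Mcpt8 and Ccl3 of -0.09. The cells share mice, libraries and depth, so these are descriptions.

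By ratio, the 5 genes lowest in HLA→B6 among those with an interval off 1 were Cxcl2, Csnk2b, Il6, Tagap and Tecpr1. Cxcl2, a neutrophil chemokine, was at 527 CPM in B6→B6, from 42 UMIs in 2 cells, of which 32 were in 1 cell, and had 0 UMIs in HLA→B6. Csnk2b had 18 UMIs against 3 (ratio 0.21, 0.04 to 0.73), Tagap 29 against 6 (0.27, 0.09 to 0.65) and Tecpr1 19 against 4 (0.27, 0.07 to 0.81). Csnk2b was at 0.32 (0.06 to 1.27) without B6→B6 replicate 4 and had 0 UMIs in HLA→B6 without replicate 1. Tecpr1 was at 0.44 (0.10 to 1.58) without B6→B6 replicate 2 and 0.18 (0.004 to 1.15) without HLA→B6 replicate 1, where Tagap was at 0.12. The 5 highest were Retnlg, Sftpc, S100a9, Hbb-bt and S100a8, which are genes of neutrophils, type 2 pneumocytes and red blood cells. Retnlg had 23 UMIs in 3 HLA→B6 cells, of which 21 were in 1 cell, and Sftpc 21 UMIs in 3 cells, of which 18 were in 1 cell. Without their richest cell, the ratios of Hbb-bt (25.1) and S100a8 (21.9) were 0.34 and 0.57, and that of S100a9 (31.2) was 1.32 (0.25 to 7.11). Most B6→B6 UMIs of Hbb-bt came from the cell of B6→B6 replicate 1 that was rich in red blood cell genes, and with all 3 such cells left out its ratio was 4.14 (0.33 to 217), from 1 and 3 UMIs. The high values of these 5 genes thus rested on 1 cell each.

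Among the genes that mark the cells, Mcpt8 and Cpa3 had intervals above 1 and Fcer1a, Hdc, Cd200r3 and Prss34 below 1, by counting error alone. Mcpt8 was 2.09-fold higher in HLA→B6 pooled cells (1.71 to 2.56), 1.56-fold without the cell of replicate 3 that held 72 UMIs. It was 1.22-fold (0.95 to 1.56) without HLA→B6 replicate 3, against 3.47-fold (2.77 to 4.35) with the first HLA→B6 mouse left out. Cpa3 had a ratio of 1.43 (1.06 to 1.92), which was 0.94 (0.67 to 1.31) without 1 cell of HLA→B6 replicate 1 with 36 UMIs and 0.62 (0.34 to 1.06) without that mouse. Its interval also held 1 without B6→B6 replicate 4 (1.25) or 5 (1.31). Fcer1a had a ratio of 0.62 (0.47 to 0.82), Ms4a2 of 1.07 (0.73 to 1.59), Gata2 of 0.69 (0.47 to 1.01) and Hdc of 0.74 (0.61 to 0.91). Gata2 was at 0.35 (0.14 to 0.72) without HLA→B6 replicate 1, and the interval of Hdc held 1 with B6→B6 replicate 2 (0.82) left out, as with the first (0.95) or second (0.82) HLA→B6 mouse. Cd200r3 had a ratio of 0.56 (0.39 to 0.80) and Cyp11a1 of 1.27 (0.96 to 1.69). That of Prss34 was 0.30 (0.13 to 0.64), and 2.80 (0.78 to 12.4) without its richest cell. In each of these genes the values of the single mice overlapped between the groups.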

How the data were processed

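Single cells of 8 left lung grafts were profiled with the 10x Genomics 3′ kit. The authors produced the deposited counts, whole UMIs per gene and cell, with Cell Ranger on mm10 (GRCm38), excluded barcodes below 200 UMIs and genes detected in less than 3 cells, applied SoupX for free RNA, and named Seurat clusters with clustifyr and a Tabula Muris reference. The sources used here do not say whether SoupX came before or after the deposited counts. The table has 17921 genes, and 17 of its 20778 cells sum to fewer than 200 UMIs. All columns were used (0 left out). Cells took their mouse from the table of cells, whose numbers of the HLA→B6 mice differ from those in the cell names.

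The members, gene lists and tests were chosen with earlier results of these data known. Named were the 25 genes with the largest ratio of pooled CPM to the highest other type (at least 20 UMIs, 10 cells), all members of the receptor and marker lists, of other lists those at 4-fold and some at the top or bottom by level, and 5 genes per direction between groups. Ccl3, Ccl4 and further genes without overlap between groups were chosen after their values were seen. Poisson, conditional binomial and Clopper-Pearson intervals (95%) cover counting error only. Only the share of cells was tested, by an exact permutation over mice. Shares of cells with a UMI were the expected values at 1000 UMIs. Pooled ratios were checked on simulated data. Alternatives were each mouse left out, cells with at least 500 UMIs, Scrublet doublets (expected rate 0.06) or cells with shared barcodes out, other denominators, filters and thinning. Those without the richest cell of a gene, or without cells rich in red blood cell or neutrophil genes, were added after seeing the data. Tests ran in scipy 1.17.1 and Scrublet in scanpy 1.11.5, with pandas 2.3.3, numpy 2.4.6 and matplotlib 3.10.9 under Python 3.11.15. Median depth was 1356 to 1948 UMIs per cell in the 8 mice. p-values measure only the spread between these libraries, 1 per mouse. Gene positions are from GENCODE vM21, which matched 98.8% of the gene names.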

Additional observations from a re-analysis of the deposited data

Results flagged for a closer look

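In the labelled cells of the 5 B6→B6 mice, Adgrg3, an adhesion G protein-coupled receptor, was at 498 CPM in replicate 1 and at 81.5 to 194 CPM in the other 4 mice. The gap to the next mouse was 0.73 of the range of the group, over Dixon's limit of 0.71 for 5 samples. The value rested on 6 UMIs in 3 cells. It was 1 of 28 values checked in this way, and chance alone passes that limit in about 1 of 20 groups.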

How the results depend on the processing

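The share of labelled cells kept its direction and stayed above the threshold of 0.05 under all 16 alternatives. Its difference was between -0.371 and -0.184 percentage points with 1 mouse left out, -0.319 without cells that share a barcode, and -0.294 within the sets of linked libraries. With the replicate number as a block (3 pairs) it was -0.375, with p = 0.25 by an exact permutation of signs, the smallest that 3 pairs can give. The numbers in the titles mark no shared litter or day. The pooled CPM of Mcpt8, Cpa3, Ms4a2 and Fcer1a moved by less than the SD between mice under all 48 alternatives. For Mcpt8 this SD (3058 CPM) was above the level itself (2942 CPM), so that no fall could pass it. Its level was 2159 CPM without HLA→B6 replicate 3. Shares of cells with a UMI depended on depth. Thinned to 500 UMIs they were 42.9% for Mcpt8, 38.5% for Cpa3, 32.5% for Ms4a2 and 50.9% for Fcer1a, and unthinned 69.4% for Cpa3, 67.1% for Ms4a2 and 82.4% for Fcer1a. The number of cells with a mast cell marker was 2 to 4 with 1 mouse left out, 2 without HLA→B6 replicate 3. With a filter of 10 UMIs and 5 cells, 65 genes were at least 4-fold above every other type in place of 41. Of the log2 ratios between the groups, 337 of 371 values stayed within their counting interval, 26 moved and 8 reversed. Leaving out 1 mouse, Hbb-bt ranged from -1.40 to 8.0, S100a8 from -0.62 to 5.85, Cpa3 from -0.70 to 0.78 and Defb40 from -3.20 to 1.74. Without the richest cell, Hbb-bt was -1.54, S100a8 -0.82 and Cpa3 -0.084, and without the cells rich in red blood cell or neutrophil genes S100a8 was -0.76 and Hbb-bt 2.05. These settings leave out 1 mouse or up to 3 cells. At this depth a gene under 20 UMIs over the 85 cells gives no reliable ratio.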

Other observations

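Among the interferon-stimulated genes, Ifitm1 was at 9220 CPM in 83 of the 85 labelled cells and at 3651 CPM in leukocytes, the next highest type, while Ifitm3 was at 776 CPM against 6432 CPM in monocytes. Irf1, Irf7 and Isg15 had 8 to 16 UMIs each. The summed level of the 11 genes was 8198 to 11936 CPM in the B6→B6 mice and 5791, 10807 and 16852 CPM in the HLA→B6 mice, so the groups overlapped. Genes of MHC class II were at 741 CPM in sum, against 54907 CPM in myeloid cells. Of 6 cell cycle genes, Mki67, Mcm5, Ccnb1 and Cdk1 had 0 UMIs in the labelled cells.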
